A study of Mus musculus with 11 samples.

Results

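The genes described here encode the fast-fibre versions of the contractile apparatus of mouse skeletal muscle: Myh1, Myh2 and Myh4 (myosin heavy chains IIX, IIA and IIB), Mylpf and Myl1 (fast light chains), Tnnc2, Tnni2 and Tnnt3 (fast troponin), Tpm1 (alpha-tropomyosin) and Mybpc2 (fast myosin-binding protein C). They were taken by symbol and not by a cut on their values, though earlier results of these data were known. All 10 were present among the 12128 genes that the soleus and quadriceps tables share. RNA was sequenced from mice 2.5 months old. One set of mice had doxycycline-switched Myc overexpression, was given the drug overnight and was sampled 12 hours after it was taken away, and age-matched mice were the controls. The groups were soleus control (3 libraries), soleus Myc-labelled (4), quadriceps control (2) and quadriceps Myc-labelled (2). The labels give neither the genotype of the controls nor whether they were given doxycycline, and they do not name the promoter or the cells that drive the transgene. They also do not tie the libraries to separate animals, so p-values measure the spread between these libraries, and they do not link a soleus library to a quadriceps library of the same number.

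A muscle fibre contracts when myosin heavy chains of the thick filament pull on actin of the thin filament. Each heavy chain carries an essential and a regulatory light chain, and troponin and tropomyosin on the thin filament open the myosin-binding sites when calcium rises. Fast and slow fibres use different genes for most of these proteins, and the fast heavy chains form a series from IIA through IIX to IIB with rising speed of shortening; mouse soleus is known as a mix of slow, IIA and IIX fibres, and quadriceps as mostly IIB.

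Values are normalised reads, that is, estimated reads over the size factor of the library, with soleus and quadriceps scaled in separate tables. Estimated depth was 11.1 to 14.9 M reads in soleus and 14.2 to 18.4 M in quadriceps. The 10 genes held 2.80% to 4.33% of the total in soleus libraries and 10.6% to 14.6% in quadriceps libraries. The row of Myc itself held 28.2 to 54.3 normalised reads in soleus controls and 26.3 to 31.0 in Myc-labelled soleus, and it was not higher in Myc-labelled quadriceps either (86.4 and 33.6 against 114 and 55.7 in controls), so every direction below rests on the labels. Whether transgene reads are counted in that row is not known, so it does not show whether Myc was induced. Slow-fibre genes set the quadriceps libraries apart from each other: Myh7, the slow heavy chain, held 9731 normalised reads in control 1, 76136 in control 2, 174 in Myc-labelled 1 and 156 in Myc-labelled 2.

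Myh2, Myh1 and Myh4 are neighbours in the genome, in that order, and their promoters are shown first because the levels of the 3 genes differed between the muscles in different ways. Promoters of 8 of the 10 genes were found in RefSeq (GRCm38.p6); Tnni2 and Tnnt3 were not matched. The 200 bases before the start site are given 5′ to 3′ on the gene's strand. Capitals mark a run of 20 bases that all 3 promoters hold, TATAAA on that strand, and matches on either strand to the binding motif of the MEF2 factors and to the CArG box, which serum response factor binds.
Myh1, chr11:67199902-67200101, plus strand: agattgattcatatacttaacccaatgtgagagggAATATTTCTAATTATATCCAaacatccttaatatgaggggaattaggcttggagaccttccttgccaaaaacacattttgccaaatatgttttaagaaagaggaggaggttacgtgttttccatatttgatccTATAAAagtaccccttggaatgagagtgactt
Myh2, chr11:67170827-67171026, plus strand: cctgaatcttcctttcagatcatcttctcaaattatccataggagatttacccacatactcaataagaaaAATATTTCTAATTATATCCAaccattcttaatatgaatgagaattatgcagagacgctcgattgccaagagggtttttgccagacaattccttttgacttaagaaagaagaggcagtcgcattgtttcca
Myh4, chr11:67237612-67237811, plus strand: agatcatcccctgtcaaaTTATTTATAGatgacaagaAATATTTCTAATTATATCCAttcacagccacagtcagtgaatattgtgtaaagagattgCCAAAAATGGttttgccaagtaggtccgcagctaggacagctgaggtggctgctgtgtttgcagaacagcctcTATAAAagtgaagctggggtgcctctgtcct
The shared run, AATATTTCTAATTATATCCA, began 165 bases before the start of Myh1, 130 before that of Myh2 and 163 before that of Myh4. Of 32851 mouse promoters of 250 bases, 3 held it on either strand (0.00913%), and those were these 3 genes. TATAAA was present 32 bases before the start of Myh1 and 31 before that of Myh4. On either strand it was held by 3 of the 8 matched promoters (Myh1, Myh4 and Myl1) and by 12.4% of all promoters. A MEF2 match was present in Myh1, outside the bases shown, and in Myh4, against 2.92% of all promoters, and in Myh4 it overlapped a TATAAA on the opposite strand. A CArG box was present in Myh4, against 1.47% of all promoters. These matches were searched after the levels were known and describe the letters only.

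The promoters of Mylpf and Tpm1 are shown because these were the genes that passed the test in soleus. Capitals here mark CANNTG, the E-box core bound by muscle basic helix-loop-helix factors.
Mylpf, chr7:127211408-127211607, plus strand: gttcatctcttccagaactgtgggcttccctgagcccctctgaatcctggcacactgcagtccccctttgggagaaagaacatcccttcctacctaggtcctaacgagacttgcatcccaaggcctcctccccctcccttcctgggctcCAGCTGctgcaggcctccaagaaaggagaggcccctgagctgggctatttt
Tpm1, chr9:67049214-67049413, minus strand: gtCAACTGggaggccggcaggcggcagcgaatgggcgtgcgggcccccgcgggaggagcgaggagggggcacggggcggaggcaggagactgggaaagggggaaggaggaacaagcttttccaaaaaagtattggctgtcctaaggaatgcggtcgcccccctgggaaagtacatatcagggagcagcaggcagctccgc
CANNTG on either strand was present in 6 of the 8 matched promoters and in 66.2% of all promoters. CACGTG, the E-box form that Myc and Max bind and itself a case of CANNTG, was present in 0 of the 8 and in 6.02% of all promoters of 250 bases. No binding was measured in these samples.

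Levels between genes can be compared only per length, here as normalised reads per kb of the principal GENCODE transcript. In control soleus Tnnt3, the tropomyosin-binding troponin subunit, had the highest level at 67734 ± 2422 per kb (SD, n = 3), followed by Tnnc2, the calcium-binding subunit, at 49731 ± 3792. Tpm1 (36723), Tnni2 (34973) and Myh2 (34245) came next, and the ranges of neighbours in that order overlapped. Mylpf (29518), Myl1 (25319) and Myh1 (12904) followed with no overlap between neighbours, and Myh4 (2094) and Mybpc2 (810) were lowest and overlapped. Control quadriceps had another order per kb. Tnnt3 was again highest at 193192 ± 19912 (SD, n = 2). Tnnc2 (144965), Myh4 (141076), Mylpf (140470), Tpm1 (135391) and Myl1 (106727) came next, and the ranges of neighbours among them overlapped. Tnni2 (94737) and Mybpc2 (25727) followed with no overlap between neighbours, and Myh1 (11077) and Myh2 (6426) were lowest and overlapped.

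Between muscles the widest gaps were in Myh4 and Mybpc2. Control means were 67.4-fold higher in quadriceps for Myh4, but 45.7-fold without soleus control 1 and 155-fold without soleus control 2. They were 31.8-fold higher for Mybpc2, the C protein of fast thick filaments, while Mylpf, Myl1, Tpm1, Tnnc2, Tnnt3 and Tnni2 were 2.71-fold to 4.76-fold higher. Myh2 went the other way and was 5.33-fold higher in soleus, but 2.96-fold without quadriceps control 1 and 26.9-fold without quadriceps control 2. The ranges of Myh1 overlapped. The tables were scaled separately and no test was made across them.

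**Figure D1:**
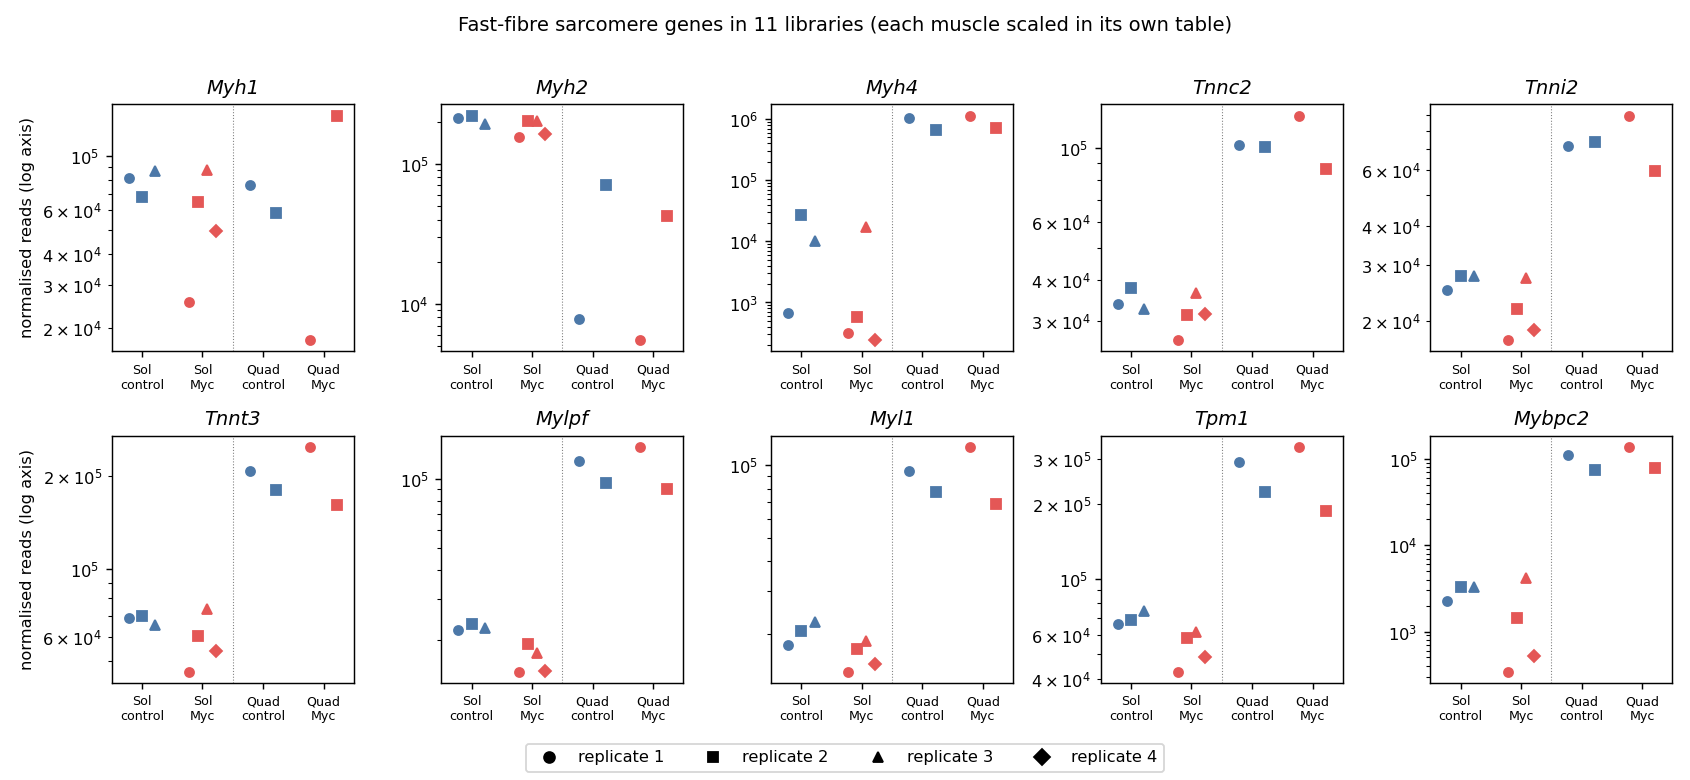
Normalised reads (vertical log axis, a different range in each panel) of the 10 fast-fibre genes in each of the 11 libraries; blue marks control and red Myc-labelled libraries, and the shape marks the replicate number. Mylpf and Tpm1 are the genes whose soleus groups do not overlap.

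In soleus, Mylpf and Tpm1 fell in Myc-labelled libraries, and they were 2 of the 10 genes, against 2.23% of 12745 tested genes called lower (limma, adjusted p under 0.05). None of the 10 was called higher, against 7.06% of tested genes. Log2 changes, Myc-labelled minus control, were below zero for 10 of 10 genes, as they were for 54.4% of all tested genes, and the median was -0.38 against -0.03 over all genes. In whole muscle, fewer cells of a type and less RNA per cell cannot be told apart.

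Mylpf, the regulatory light chain of fast myosin, held 22009, 23408 and 22415 normalised reads in the 3 soleus controls and 14552, 19184, 17580 and 14579 in the 4 Myc-labelled libraries. Every control lay above every Myc-labelled library, and the controls differed little among themselves. The log2 change was -0.47 with an SE of 0.11 (95% interval -0.69 to -0.24, limma, adjusted p = 0.010), a control mean 1.37-fold above the Myc-labelled mean. The call was lost without control 2 (limma, adjusted p = 0.060) and where 1 model took all 11 libraries (adjusted p = 0.072). Tpm1, whose protein winds along actin and blocks the myosin-binding sites at rest, held 66278, 68511 and 74310 in controls and 42762, 58116, 61254 and 48885 in Myc-labelled libraries. Its groups did not overlap either. The log2 change was -0.41 with an SE of 0.12 (95% interval -0.66 to -0.17, limma, adjusted p = 0.035), a 1.32-fold difference of means. This call was less stable: leaving out control 1, 2 or 3, or Myc-labelled 1 or 4, gave adjusted p = 0.071, 0.11, 0.12, 0.091 and 0.12 in limma, and the fit over all 11 libraries gave 0.23. That fit assumes 1 spread per gene for both muscles. Fitted alone, soleus and quadriceps had SEs of 0.11 and 0.31 for Mylpf and of 0.12 and 0.37 for Tpm1. Mylpf and Tpm1 were 2 of 10 genes whose groups did not overlap with the lower values in Myc-labelled soleus, against 8.35% of all tested genes.

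Myl1, which encodes the essential light chains of fast myosin, held 18023, 20608 and 22364 in soleus controls and 13936, 17290, 18706 and 15042 in Myc-labelled libraries. Only Myc-labelled 3 reached into the control range. The log2 change was -0.33 (SE 0.11, limma, adjusted p = 0.087).

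Among the troponin genes, Tnni2, the subunit that inhibits actomyosin at rest, held 25109, 27717 and 27753 in soleus controls and 17365, 21816, 27353 and 18705 in Myc-labelled libraries, a log2 change of -0.35 (SE 0.13, limma, adjusted p = 0.13). Tnnt3 held 69080, 70091 and 65453 against 46233, 60250, 73888 and 54076, a change of -0.24 (SE 0.13, limma, adjusted p = 0.31). In both, Myc-labelled 3 lay inside or above the control range and the other 3 Myc-labelled libraries lay below it. Tnnc2 held 33920, 37797 and 32718 against 26322, 31333, 36616 and 31512, with a change of -0.15 (SE 0.11, limma, adjusted p = 0.45). The number of the 10 called lower depended on the libraries used (limma). Without control 2 it was 0, against 0.918% of all tested genes in that fit. Without control 1, control 3, Myc-labelled 1 or Myc-labelled 4 it was 1, against 1.23%, 1.31%, 1.68% and 1.21% of all genes. Without Myc-labelled 3, whose values had been seen, it was 5, against 1.91% of all genes. These were Tnni2 (limma, adjusted p = 0.0061), Tnnt3 (0.037), Myl1 (0.030), Mylpf and Tpm1. In that library Mylpf and Tpm1 lay below every control, Tnni2 and Myl1 within the control range and Tnnt3 above it.

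The fast heavy chains did not pass the test in soleus. Myh2, the IIA chain, held 211317, 220703 and 192923 in controls and 156370, 201565, 203365 and 163939 in Myc-labelled libraries, a log2 change of -0.21 (SE 0.11, limma, adjusted p = 0.29). Myh1, the IIX chain, held 81144, 67747 and 86523 in controls and 25643, 65123, 87802 and 49691 in Myc-labelled libraries, a change of -0.59 (SE 0.44, limma, adjusted p = 0.52). For both genes Myc-labelled 1 was lowest and the groups overlapped.

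Myh4, the IIB chain, varied widely within both groups. Its soleus controls held 664, 26824 and 10303 normalised reads and the Myc-labelled libraries 318, 589, 17469 and 243. Control 1 was low like Myc-labelled 1, 2 and 4, and Myc-labelled 3 lay between the other 2 controls. The log2 change, -2.59, had a 95% interval of -7.97 to 2.80 (limma, adjusted p = 0.56). Mybpc2 held 2254, 3279 and 3240 in controls and 344, 1436, 4188 and 524 in Myc-labelled libraries, and its change of -1.50 had an interval of -3.91 to 0.91 (limma, adjusted p = 0.44). Across all 7 soleus libraries the highest value was 110-fold the lowest for Myh4 and 12.2-fold for Mybpc2, against 1.41-fold for Myh2.

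**Figure D2:**
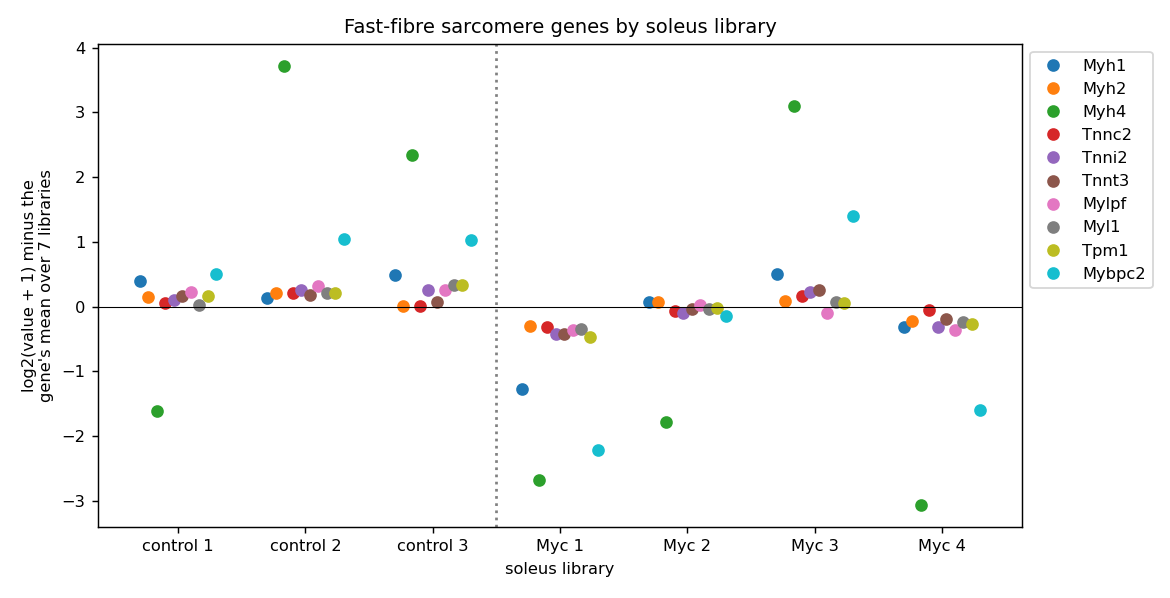
Each point is 1 gene in 1 soleus library, as log2(value + 1) minus that gene's mean over the 7 libraries (vertical axis); libraries are on the horizontal axis, split by a dotted line into controls and Myc-labelled. Myh4 spans -3.06 to 3.72, and Myc-labelled 1 is the lowest library for 9 of the 10 genes.

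Some soleus libraries were low or high for most of the genes, as the plot of centred soleus values shows. Myc-labelled 1 was the lowest soleus library for 9 of 10 genes, and Myc-labelled 4 for Myh4. The highest library was control 2 for 4 genes, control 3 for 3 and Myc-labelled 3 for 3. Actn3, the fast alpha-actinin of the Z-disc, and Pvalb, a calcium buffer of the fastest fibres, were set beside Myh4 after their values were seen. Actn3 held 2603, 5020 and 3171 in soleus controls and 471, 1896, 5094 and 270 in Myc-labelled libraries (log2 change -1.71, limma, adjusted p = 0.46), and Pvalb held 2899, 4877 and 2684 against 809, 1868, 3196 and 910 (-1.21, limma, adjusted p = 0.32). In both, control 2 and Myc-labelled 3 were the highest of their groups, as for Myh4. The likeness was partial: control 1, the lowest control for Myh4, lay above control 3 for Pvalb. For Myh1, control 2 was instead the lowest control, at 67747. Atp2a1, a calcium pump of fast fibres, differed little among soleus controls, at 202936 to 208910. In Myc-labelled libraries it held 135175 to 213233.

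The make-up of the adult heavy chains was computed per kb within each library, as a share of Myh1, Myh2, Myh4 and Myh7. In soleus Myh7 made up 44.6%, 44.3% and 39.4% in controls and 57.0%, 43.1%, 41.5% and 54.9% in Myc-labelled libraries. Myh2 made up 38.9% to 40.3% in controls and 34.6% to 42.9% in Myc-labelled libraries, and Myh1 12.0% to 18.1% and 6.04% to 16.6%. Myh4 made up 0.127%, 4.79% and 2.18% in controls and 0.0757%, 0.127%, 3.34% and 0.0519% in Myc-labelled libraries. All 4 shares overlapped between the groups, and Myc-labelled 1 and 4 had the highest shares of the slow chain. The soleus libraries thus held mostly Myh7 and Myh2, as mouse soleus is known to.

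In quadriceps Myh4 made up 91.8% and 76.9% in controls and 98.0% and 79.5% in Myc-labelled libraries. Myh2 made up 0.685% and 8.0% against 0.470% and 4.62%, and Myh1 6.71% and 6.68% against 1.53% and 15.9%. Myh7 made up 0.839% and 8.44% in controls and 0.0145% and 0.0166% in Myc-labelled libraries. The IIB chain led in every quadriceps library, and the second library of each group had the lower IIB share. The heavy chain genes are close paralogs. Of 50-base windows, 26.7% of Myh1, 26.9% of Myh2 and 18.9% of Myh4 occur word for word in at least 1 of 7 other heavy chain transcripts. Of 100-base windows, 9.73%, 9.17% and 3.85% do. How the reads of these genes were divided is therefore uncertain.

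**Figure D3:**
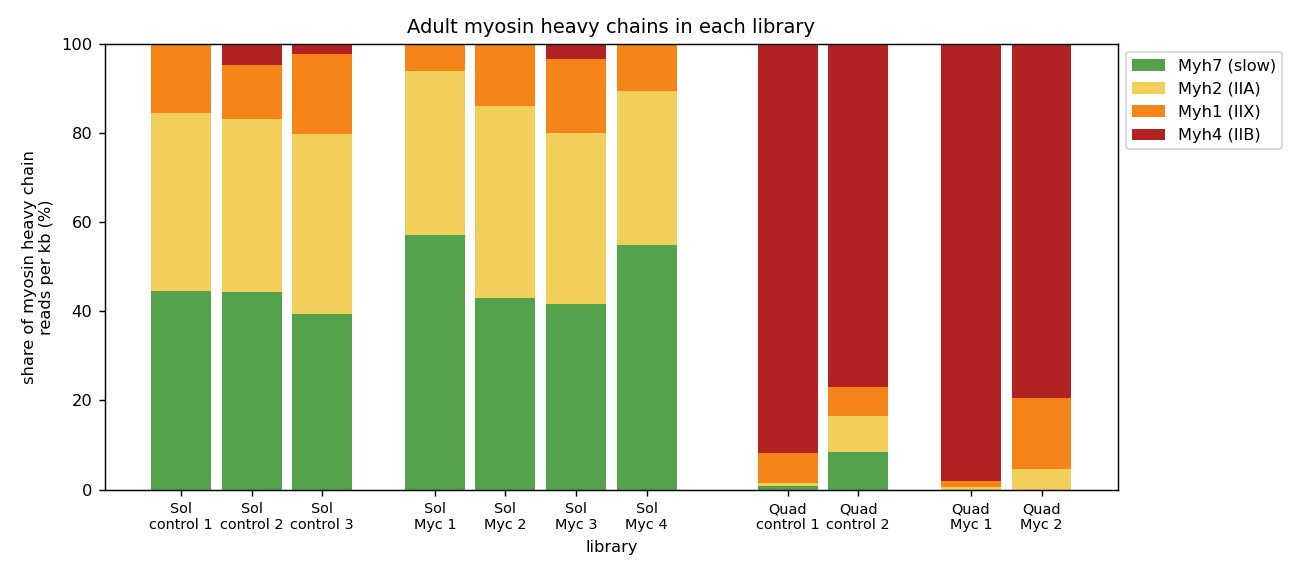
Bars give, for each library, the share (%) of Myh7, Myh2, Myh1 and Myh4 in their summed normalised reads per kb. Soleus bars are mostly Myh7 and Myh2, and Myh4 fills 76.9% to 98.0% of the quadriceps bars.

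In quadriceps no fast-fibre gene was called in either direction with limma, against 0% of 12270 tested genes called lower and 0.00815% called higher. Before adjustment 762 genes had p under 0.05, 0 of the 10 among them, and limma-voom on estimated reads also called 0 of the 10. Log2 changes ran from -0.61 to 0.19, with 3 below and 7 above zero and a median of 0.04 against -0.03 over all genes. No gene had groups without overlap, against 16.9% of genes lower and 18.3% higher.

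Myh4 held 1027830 and 669597 normalised reads in quadriceps controls and 1136560 and 717849 in Myc-labelled libraries, a log2 change of 0.12 (95% interval -0.81 to 1.05, limma, adjusted p = 0.98). Myh1 held 75925 and 58791 in controls and 17909 and 145236 in Myc-labelled libraries, so that the Myc-labelled libraries lay on both sides of the controls. Its change was -0.39 (95% interval -4.22 to 3.44, limma, adjusted p = 0.98). Without Myc-labelled 2, which leaves 1 library assumed to vary like the others, the change was -1.90. Myh2 held 7752 and 70429 against 5516 and 42229, so that replicate 2 was far above replicate 1 in both groups.

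Mylpf held 119470 and 95730 in quadriceps controls and 137232 and 89891 in Myc-labelled libraries, a log2 change of 0.05 (95% interval -0.67 to 0.78). Tpm1 held 292005 and 221941 against 335599 and 187173, a change of -0.02 (95% interval -0.88 to 0.84). For both genes the Myc-labelled libraries lay on either side of both controls (limma, adjusted p = 0.99 for Mylpf and 1.0 for Tpm1).

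Tnnc2 (102154 and 100797 against 125532 and 86512), Tnni2 (71748 and 73769 against 89479 and 59709), Tnnt3 (208723 and 180366 against 248901 and 161316) and Myl1 (94142 and 77262 against 118734 and 68782) had the same arrangement. Mybpc2 held 110845 and 74955 in controls and 137316 and 79203 in Myc-labelled libraries, and its lowest library, as for Myh4, was a control. Myc-labelled 1 was the highest quadriceps library for 8 of 10 genes, all but Myh1 and Myh2. Leaving out Myc-labelled 1 turned the direction of 9 of the 10 genes: Myh1 went to 1.12 and Myh2 to 0.85, and 7 others lay between -0.20 and -0.31. Directions in quadriceps thus rested on single libraries.

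**Figure D4:**
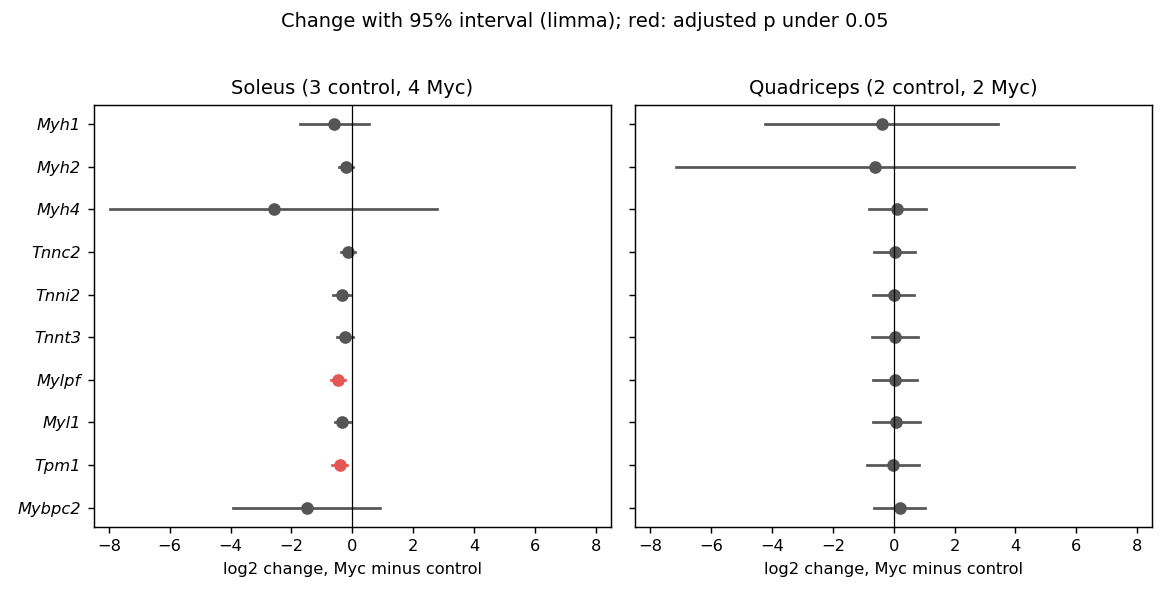
Log2 change, Myc-labelled minus control (horizontal axis), of each gene with its 95% interval from limma, in soleus (left) and quadriceps (right); red marks an adjusted p under 0.05. Mylpf at -0.47 and Tpm1 at -0.41 in soleus are the points in red.

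The soleus change minus the quadriceps change was tested in 1 limma fit over all 11 libraries, which assumes 1 spread per gene for both muscles. None of the 10 genes was called, against 0% of 11971 genes, and before adjustment 381 genes had p under 0.05, 0 of the 10 among them. The difference was below zero for 9 of 10 genes, as for 45.8% of all genes, with a median of -0.38 against 0.03. Mylpf had a difference of -0.52 (95% interval -1.05 to 0.0060, limma, adjusted p = 1.0). Tpm1 had one of -0.39 (-1.06 to 0.28) and Myh2 one of 0.41 (-2.97 to 3.79). The changes in the 2 muscles were therefore not shown to differ.

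Ratios of a fast gene to its slow partner within a library do not depend on the scaling. In soleus Mylpf over Myl2, the slow regulatory light chain, was 0.508 ± 0.043 (SD, n = 3) for controls and 0.401 ± 0.101 (SD, n = 4) for Myc-labelled libraries. Tpm1 over Tpm3 was 1.71 ± 0.16 and 1.38 ± 0.36. Myc-labelled 1 and 4 lay below every control in both ratios, at 0.314 and 0.315 for Mylpf and 1.01 and 1.14 for Tpm1, and Myc-labelled 2 and 3 lay within the control range. The ratios of the other 5 pairs (Tnnc2 over Tnnc1, Tnni2 over Tnni1, Tnnt3 over Tnnt1, Myl1 over Myl3 and Mybpc2 over Mybpc1) overlapped between groups too.

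In quadriceps Tnnc2 over Tnnc1 was 84.9 and 11.6 in controls and 3937 and 2192 in Myc-labelled libraries. The groups did not overlap for 6 of the 7 pairs, all but Mybpc2 over Mybpc1, with the higher ratios in Myc-labelled libraries. Of all tested quadriceps genes, 16.9% were lower and 18.3% higher without overlap, and no such share was computed for ratios. The 6 pairs are not independent, since their slow partners were low together in both Myc-labelled libraries. The difference lay in the slow partners: Tnnc1 held 1203 and 8658 normalised reads in controls and 32 and 39 in Myc-labelled libraries, while Tnnc2 held between 86512 and 125532. The log2 change of Myh7 was -7.36 and did not pass the test in quadriceps alone (limma, adjusted p = 0.60). It did where 1 model took all 11 libraries (limma, adjusted p = 0.012). That model assumes 1 spread per gene for both muscles, while the SE of Myh7 was 0.12 in soleus alone and 1.29 in quadriceps alone. No test was made of the ratios.

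**Figure D5:**
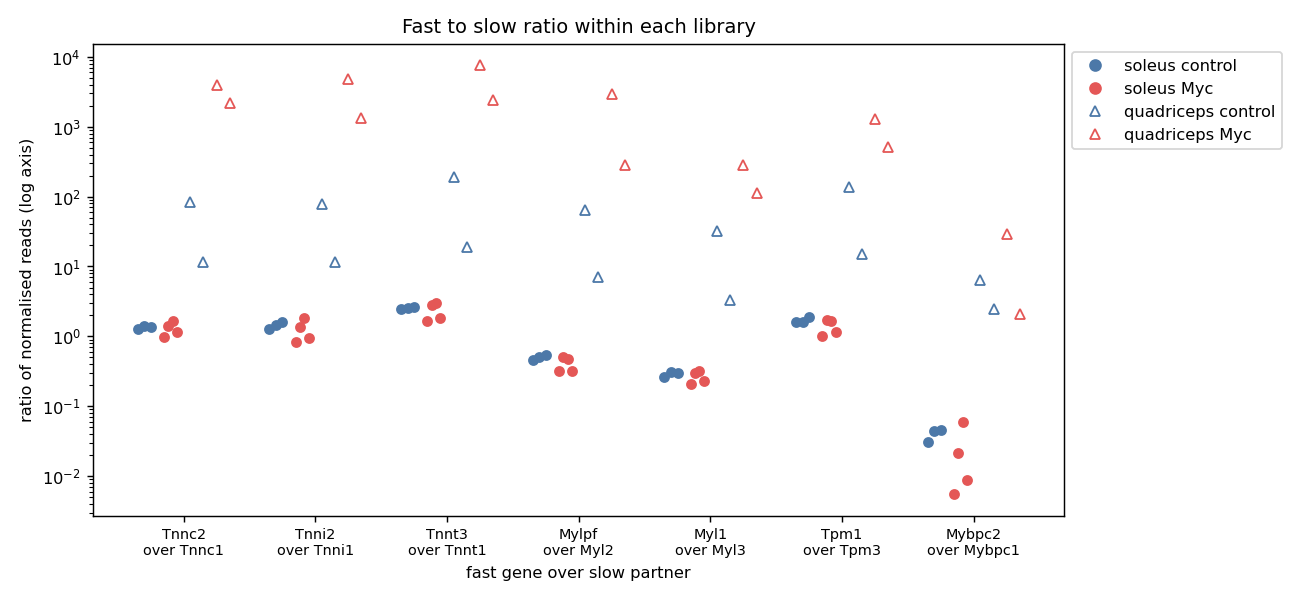
Ratio of the normalised reads of a fast gene to those of its slow partner (vertical log axis) in each library, for 7 pairs; filled circles are soleus, open triangles quadriceps, blue control and red Myc-labelled. Soleus groups overlap in every pair, and quadriceps groups in Mybpc2 over Mybpc1 alone.

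Other genes of fast fibres, a list of 16 that holds calcium handling, Z-disc and glycolytic genes, had a median soleus change of -0.41, and 15 of 16 were below zero. The list had 2 genes called lower and 0 higher (limma). Ampd1, the muscle AMP deaminase, held 4338, 4370 and 5528 in controls and 2910, 2876, 3681 and 3346 in Myc-labelled libraries, a log2 change of -0.57 (SE 0.11, limma, adjusted p = 0.0041). Myoz3, a calcineurin-binding Z-disc protein, held 1144, 1267 and 1430 against 518, 686, 991 and 532, a change of -0.95 (SE 0.21, limma, adjusted p = 0.022). Neither gene's groups overlapped. Myoz3 lost its call without control 2, control 3 or Myc-labelled 2 (limma, adjusted p = 0.081, 0.11 and 0.052) and Ampd1 in the fit over all 11 libraries (0.11). Atp2a1, the fast calcium pump, had a change of -0.35 (limma, adjusted p = 0.14) and Myoz1 one of -0.54 (0.17), and without Myc-labelled 3 both were called. In quadriceps the list had 0 calls and a median of 0.05.

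Slow-fibre sarcomere genes had 0 of 14 called in soleus, with a median of -0.07. Myh7 held 241772, 257270 and 193242 normalised reads in soleus controls and 248011, 207400, 224765 and 266460 in Myc-labelled libraries, a log2 change of 0.04 (limma, adjusted p = 0.88). In quadriceps 14 of 14 were below zero with a median of -3.94, and 0 were called.

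Sarcomere genes listed as shared by both fibre types had 4 of 23 called lower in soleus, against 2.23% of all tested genes. The list had 0 called higher and a median of -0.17. Called lower were Actc1 (cardiac alpha-actin, -0.62, limma, adjusted p = 0.017), Tmod4 and Tmod1 (caps of the thin filament's pointed end, -0.36 and -0.39, adjusted p = 0.025 and 0.0499) and Myot (myotilin, a Z-disc protein, -0.29, adjusted p = 0.048). Their levels were not even between the separately scaled muscles. Control means in soleus and quadriceps were 484 and 7306 for Actc1 and 2029 and 6419 for Tmod1. They were 3007 and 5826 for Tmod4 and 35555 and 25063 for Myot. Without control 2, and in the fit over all 11 libraries, 0 of 23 were called, and 1 was called when control 1, control 3 or Myc-labelled 1, 2 or 4 was left out. Developmental and specialised myosins had 0 of 12 called, with a median of -0.07.

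Chaperones and ligases of the sarcomere had 1 gene called higher and 1 lower of 13 in soleus. Hsp90aa1, a chaperone that helps fold myosin, held 790, 870 and 749 in controls and 1621, 1435, 1225 and 1673 in Myc-labelled libraries, a log2 change of 0.88 (SE 0.12, limma, adjusted p = 1.0e-04). Trim55, a ubiquitin ligase of the thick filament, held 1165, 948 and 1089 against 804, 713, 751 and 698, a change of -0.52 (SE 0.11, limma, adjusted p = 0.0051, and 0.051 without both Myc-labelled 3 and 4). Unc45b, the myosin-specific co-chaperone, had a change of -0.21 (limma, adjusted p = 0.22). Regulators of fibre type had 0 of 30 called and a median of -0.21. The lowest p among them was that of Eya4, a transcription cofactor of fast fibres, which held 118, 149 and 156 in controls and 55.5, 82.0, 84.1 and 98.0 in Myc-labelled libraries (-0.83, limma, adjusted p = 0.0504).

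Markers of other cells were summed in each library. Tendon markers (10 of 10 detected in soleus) totalled 9101, 9874 and 7899 normalised reads in soleus controls and 8057, 7053, 2343 and 3719 in Myc-labelled libraries, and Myc-labelled 3 and 4 also had the lowest fibroblast sums (13443 and 16603 against 25239 to 30920 in controls). With both left out, 3 of the 10 genes were called lower (limma, adjusted p = 0.048 for Mylpf, 0.049 for Tpm1 and 0.029 for Tnni2), against 1.15% of all tested genes in that fit. Of the other lists, Ly6a among 12 fibroblast markers was called lower (-0.34, limma, adjusted p = 0.046, lost in 12 of 19 alternatives), and adipocyte, endothelial, macrophage, satellite cell, Schwann cell, erythroid and smooth muscle markers had 0 called. Soleus changes were below zero for 54.4% of all tested genes. They were below zero for 9 of 10 tendon markers (median -1.01), 12 of 12 fibroblast markers (-0.31) and 5 of 5 erythroid markers (-0.60). The same held for 9 of 9 macrophage markers (-0.38) and 9 of 9 adipocyte markers (-0.34). Changes were above zero for 10 of 10 Schwann cell markers (0.50). Erythroid sums were lowest in Myc-labelled 3 and 4, at 4305 and 3277 against 7444 to 7704 in controls. The Schwann cell sum was highest in Myc-labelled 2, at 5624 against 2035 to 2972 in controls. Their part in the results was not tested.

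The genes whose soleus profile was most like the mean centred profile of the 10 were taken from genes with a mean of at least 100 normalised reads, by the root mean square difference over 7 libraries on the log2 scale. They were Cyp27a1 (0.19), Smox (0.19), Gpt2 (0.20), Tpbgl (0.21) and H6pd (0.23). The 10 genes themselves lay 0.31 (Tnni2) to 2.18 (Myh4) from that mean profile, in which Myh4 counts as 1 of the 10 averaged. Being chosen for this profile, they are described with no test. Cyp27a1, a sterol hydroxylase, held 412, 765 and 614 normalised reads in soleus controls and 313, 355, 647 and 342 in Myc-labelled libraries. Smox, which oxidises spermine, held 214, 357 and 256 against 123, 162, 226 and 118. In both, Myc-labelled 3 was the highest of its group, as it was for Gpt2, Tpbgl and H6pd.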

How the data were processed

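The deposited tables hold a normalised signal per gene, made by the authors: estimated reads divided by 1 size factor per library, as read from the values, of which 90.9% to 93.5% under 300 reads were whole multiples of 1 read within 0.02. STAR 2.7.8a, DESeq2 and Partek appear in the submitters' processing notes, beside the builds mm10 and mm39, so no coordinates come from the tables. The 10 genes and all gene lists were chosen with earlier results of these data known.

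Genes that reached 10 in 3 libraries of soleus, or in 2 of quadriceps, were tested with limma 3.58.1 in R 4.3.3 (statmod 1.5.0) on log2(value + 1), using robust moderation and a trend of variance on mean, each muscle alone and the difference in 1 fit over 11 libraries treated as independent. Fold changes of low genes are understated. A gene was called at an adjusted p under 0.05 (Benjamini-Hochberg, over all genes tested). The fits were tested on simulated data. Named genes are the 10, their slow partners, called genes of the lists, up to 4 per list with the smallest p in soleus and 2 in quadriceps, and the 5 with the most similar profile. Actn3 and Pvalb were named outside this rule, after their values were seen. Alternatives were other scalings, filters, pseudocounts and tests, a replicate block, and leaving out each library. Replicates differed by more than sampling noise. Lengths are from GENCODE M21 and promoters from RefSeq, GRCm38.p6.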

Additional observations from a re-analysis of the deposited data

Results flagged for a closer look

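One of 37 sets of 4 values examined, 10 genes and derived measures in Myc-labelled soleus, had a library far from the rest: the Myh4 share of the adult heavy chains, where Myc-labelled 3 was at 3.34% and the other 3 between 0.0519% and 0.127%. The gap to the nearest library was 0.977 of the whole range, above the limit of Dixon's test for 4 samples. Chance finds about 1 such set in 20. The soleus controls spread as widely, at 0.127%, 4.79% and 2.18%.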

How the results depend on the processing

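The number of the 10 genes called lower in soleus was 2, against 2.23% of all tested genes. It was 1 without robust moderation (1.89% of all genes) and 0 in 1 fit over all 11 libraries (1.4%). When 1 library was left out it was 0 to 5, against 0.918% to 1.91% of all genes. The cause was not tested. Directions in soleus held for all 10 genes under every alternative run. With the replicate number as a block, which drops Myc-labelled 4, 3 were called lower, against 2.62% of all genes. They were Mylpf, Tpm1 and Myl1 (limma, adjusted p = 0.047 for Myl1), and Myh7 turned to -0.0187. Deviations of same-numbered soleus libraries correlated at 0.001, 0.076 and 0.14, so the numbers were not taken to pair libraries. Myh7 in soleus was -0.0144 without both Myc-labelled 3 and 4. Tpm1 in quadriceps turned to 0.0398 under library-size scaling.

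Leaving out 1 library turned 18 of 40 quadriceps values of the 10 genes and 7 of 110 differences between muscles. In quadriceps each such fit leaves 1 library in a group, so no calls are given from it. The quadriceps ranges were -1.90 to 1.12 for Myh1, -2.21 to 0.98 for Myh2, -0.21 to 0.45 for Myh4, -0.23 to 0.31 for Tnnc2, -0.29 to 0.30 for Tnni2, -0.27 to 0.36 for Tnnt3, -0.25 to 0.36 for Mylpf, -0.31 to 0.48 for Myl1, -0.44 to 0.40 for Tpm1, -0.20 to 0.59 for Mybpc2 and -2.28 to 0.74 for Mybpc1. For the difference between muscles they were -1.71 to 1.31 for Myh1, -1.19 to 2.00 for Myh2, -0.46 to 0.08 for Tnnc2, -0.60 to 0.0271 for Tnnt3 and -0.81 to 0.0291 for Tpm1. In soleus, Myh7 ran from -0.0822 to 0.12, Tnni1 from -0.16 to 0.0103 and Tnnt1 from -0.13 to 0.0328.

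A count-based test was planned only for raw counts and was not run, since the values are normalised. On the estimated reads, limma-voom was run as an alternative. With 2 libraries a group, quadriceps intervals of Myh1 and Myh2 span several log2 units, and depth does not limit genes at these levels.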
